A study of Homo sapiens with 12 samples.

Results

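Gene expression in 2 drug states of Hs695T, an established human melanoma cell line, was compared directly, with no vehicle in the contrast. In the first state the MAPK pathway was blocked for 24 h with 100 nM dabrafenib, an inhibitor of the kinase BRAF, and 10 nM trametinib, an inhibitor of the kinase MEK (DT). In the second, the cells were given 1 µM entinostat, which inhibits class I histone deacetylases, for 24 h (E). The comparison used the 6 arrays titled DT or E, 3 of each, out of the 12 arrays of the series. The other arrays came from cells given all 3 drugs at the same doses (DTE, 3 arrays) and from cells given the vehicle DMSO (3 arrays). They are given here as levels only, and they enter the estimate of the spread between arrays. All groups were grown in RPMI medium with fetal bovine serum, and all are of 1 cell line, with nothing said about clones. The array titles speak of biological replicates and the series design of technical ones, so that every p-value covers only the spread between these arrays, which may be technical.

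BRAF and MEK pass growth signals from receptor tyrosine kinases to the kinase ERK. ERK switches on transcription factors of the ETS and AP-1 families, cyclin D1 and a set of feedback inhibitors, among them the Sprouty proteins and the DUSP phosphatases. Melanoma cells often depend on this pathway for division. Class I histone deacetylases sit in corepressor complexes and remove acetyl groups from histones, and inhibiting them opens genes that a cell type keeps silent, neuronal genes among them where the repressor REST acts through such complexes. Melanoma cells also move between a differentiated, pigmented state governed by MITF and SOX10 and a dedifferentiated state with high AXL and NGFR.

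Values are log2 of the deposited probe set intensities, for 14599 named genes. A difference is the DT mean minus the E mean, given ± its limma standard error, and is positive where DT was higher. The label "quantile" marks the same difference after quantile normalization of all arrays. A gene is called higher or lower where limma's adjusted p was under 0.05 on both scales with the same sign. Levels ± SD are over 3 arrays, and no gene's level is set against another's, since probe sets differ in brightness. RNA of the whole culture was measured, so that a lower level per cell and fewer cells with a transcript cannot be told apart.

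The DT arrays were dimmer than the E arrays. Median intensity per array was 39.3 ± 1.68 in DT, 49.7 ± 1.68 in E, 36.0 ± 3.46 in DTE and 53.3 ± 3.77 in DMSO (mean ± SD, n = 3). The median difference over all genes was -0.23 on the deposited scale and 0.04 after quantile normalization. It ranged from -0.04 in the dimmest 10 percent of genes to -0.35 in the brightest on the deposited scale. How the authors scaled the arrays against each other is not given in the sources used here, so the general shift is reported as it stands and gene calls rest on both scales. Arrays of a group correlated with each other at r = 0.989 to 0.994 over all probe sets. The melanoma label was borne out by SOX10, at the 96th percentile of mean level over all genes, and S100B, at the 99th, while the pigment genes MLANA, TYR and TYRP1 were dim, at the 7th to 14th percentile.

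On the deposited scale 1058 genes were higher in DT (7.25% of those tested) and 5755 were lower (39.4%), 46.7% in either direction. After quantile normalization 3530 genes were higher (24.2%) and 3014 lower (20.6%), 44.8% in either direction, so the split between directions depended on the scaling. A call in the same direction on both scales was made for 4070 genes, 27.9% of those tested. Of these 1058 were higher (7.25%) and 3012 lower (20.6%), and these last 2 percentages are the background for the counts below. A difference of at least 2-fold on both scales was found for 132 genes higher in DT (0.904%) and 759 lower (5.2%). Only 5 genes (APP, COX6A1, NOMO2, TOM1L2 and UBQLN1, listed for their opposite calls) were lower on the deposited scale and higher after quantile normalization, and 0 went the other way. All 3 DT arrays lay above all 3 E arrays on both scales for 1414 genes (9.69%) and below them for 3543 (24.3%). On the deposited scale alone these shares were 9.73% and 47.5%.

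**Figure D1:**
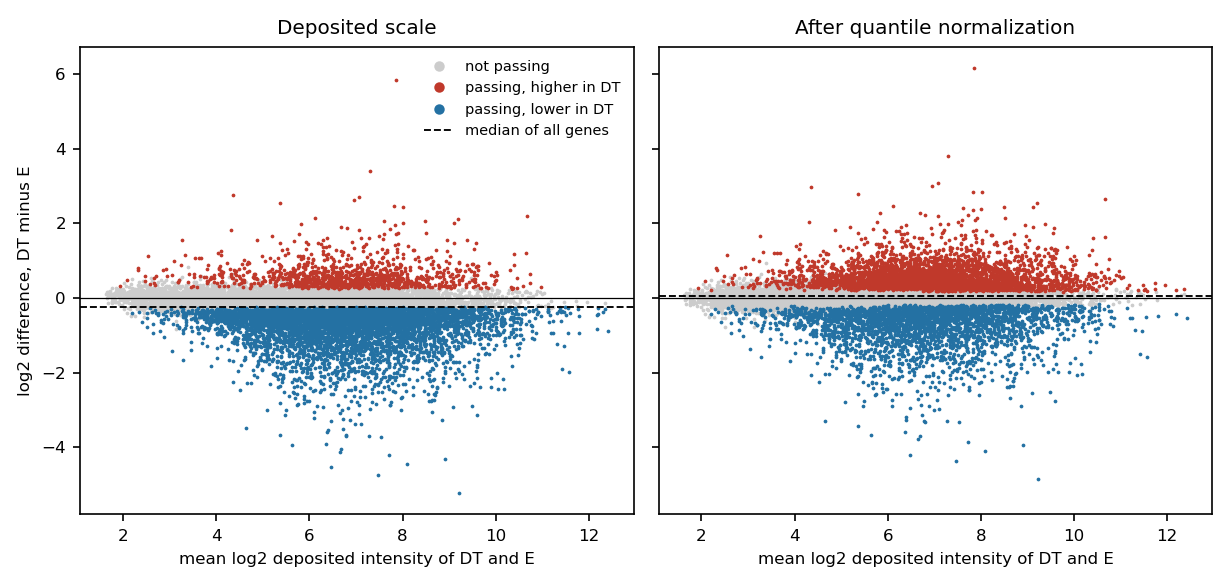
Log2 difference, DT minus E, of each of the 14599 genes against its mean log2 deposited intensity in DT and E, on the deposited scale (left) and after quantile normalization (right). Colours mark genes passing on that scale, and the dashed line is the median of all genes, at -0.23 on the left and 0.04 on the right. The lower tail is longer than the upper one on both scales, apart from ANGPTL7 at the top.

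Of the genes at least 2-fold different, most were lower in DT. NPPC, which encodes C-type natriuretic peptide, read 6.51, 6.69 and 6.61 in the DT arrays, against 11.63, 11.93 and 11.93 in the E arrays. No DT array came within 4 log2 units of an E array. The difference was -5.23 ± 0.11, quantile -4.85, 37.4-fold lower in DT (adjusted p = 2.8e-14), with levels of 7.68 in DTE and 11.90 in DMSO. SPRY4, a Sprouty gene that damps signalling to ERK, read 5.18, 5.01 and 5.09 in the DT arrays, against 9.58, 10.08 and 9.87 in the E arrays. The groups did not overlap, and the difference was -4.75 ± 0.12, quantile -4.38 (26.9-fold, adjusted p = 1.7e-13). Its level was 5.06 in DTE and 11.17 in DMSO, so DTE was like DT and DMSO was above both single treatments. ANXA1, which encodes the phospholipid-binding annexin A1, read 4.54, 3.9 and 4.20 in the DT arrays, against 8.77, 8.66 and 8.77 in the E arrays. Here the DMSO and DTE levels, 5.90 in DTE and 6.12 in DMSO, lay between the DT and E levels, and the difference was -4.52 ± 0.14, quantile -4.20 (22.9-fold).

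The other genes among the 15 furthest lower in DT, ranked by the smaller of their differences on both scales, fell into more than 1 pattern. ETV4 (-3.68 ± 0.12, quantile -3.30) and ETV5 (-4.12 ± 0.14, quantile -3.77), ETS transcription factors, and the ERK phosphatase DUSP6 (-3.93 ± 0.17, quantile -3.60) had DMSO means above both drug states, at 9.64, 9.33 and 8.93. VAT1L (-4.46 ± 0.12, quantile -4.12) and NMNAT2, an enzyme of NAD synthesis in neurons (-4.22 ± 0.13, quantile -3.85), had E means of 10.32 and 9.82 against DMSO means of 7.18 and 6.99. TREM1, a receptor known from myeloid cells (-4.05 ± 0.15, quantile -3.70), ANKRD1, a stress-inducible ankyrin repeat gene (-3.67 ± 0.18, quantile -3.44), and the long non-coding RNA LINC00052 (-3.93 ± 0.14, quantile -3.69) were lower in DT as well. So were STC1, a secreted glycoprotein hormone gene (-4.31 ± 0.10, quantile -3.95), the adhesion gene CEACAM1 (-3.71 ± 0.11, quantile -3.31) and the receptor genes MET (-3.69 ± 0.10, quantile -3.32) and KDR, which encodes a VEGF receptor (-3.71 ± 0.12, quantile -3.31). Adjusted p on the deposited scale ran from 2.8e-14 for NPPC to 1.7e-10 for ANKRD1.

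Among the 132 genes at least 2-fold higher in DT, ANGPTL7 came first. This gene, which encodes a secreted angiopoietin-like protein, read 10.85, 10.90 and 10.59 in the DT arrays, against 4.85, 4.97 and 5.01 in the E arrays. The difference was 5.83 ± 0.13, quantile 6.16, 57-fold higher in DT (adjusted p = 3.2e-14), and the levels of 5.41 in DTE and 5.28 in DMSO were near that of E. LCTL, a lactase-like glycosidase gene, read 8.95, 9.06 and 9.01 in the DT arrays, against 5.53, 5.64 and 5.6 in the E arrays, a difference of 3.42 ± 0.09, quantile 3.79 (10.7-fold). GPNMB, a melanosomal glycoprotein gene, read 8.45, 8.52 and 8.31 in the DT arrays, against 5.84, 5.40 and 5.92 in the E arrays. Its difference was 2.71 ± 0.14, quantile 3.08 (6.54-fold, adjusted p = 3.1e-10), and DTE, at 8.11, was close to DT rather than to E.

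Matrix genes stood among the other 15 furthest higher. ACAN, which encodes the proteoglycan aggrecan, averaged 10.25 ± 0.08 in DT and 8.14 ± 0.08 in E (2.12 ± 0.11, quantile 2.54), and MATN2, a matrilin gene, 8.26 ± 0.07 in DT and 5.64 ± 0.06 in E (2.62 ± 0.12, quantile 2.99). ERBB3, a receptor for neuregulins, averaged 9.53 ± 0.07 in DT and 7.46 ± 0.12 in E (2.07 ± 0.11, quantile 2.45), with a DMSO mean of 9.80 that lay near the DT level. SRM, the spermidine synthase gene, averaged 11.77 ± 0.08 in DT and 9.56 ± 0.17 in E (2.20 ± 0.11, quantile 2.67). The semaphorin receptor gene PLXNB3 (2.00 ± 0.13, quantile 2.38), PI15 (2.54 ± 0.17, quantile 2.80) and RNF150 (2.06 ± 0.11, quantile 2.43) were higher too. The set also held the non-coding PPP2R2B-IT1 (2.76 ± 0.21, quantile 2.97), the microRNA gene MIR4534 (2.45 ± 0.16, quantile 2.83) and the pseudogene INTS4P2 (2.02 ± 0.16, quantile 2.44), whose signal may include near-identical copies. In all 30 genes the DT and E arrays did not overlap on either scale, which the ranking required.

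**Figure D2:**
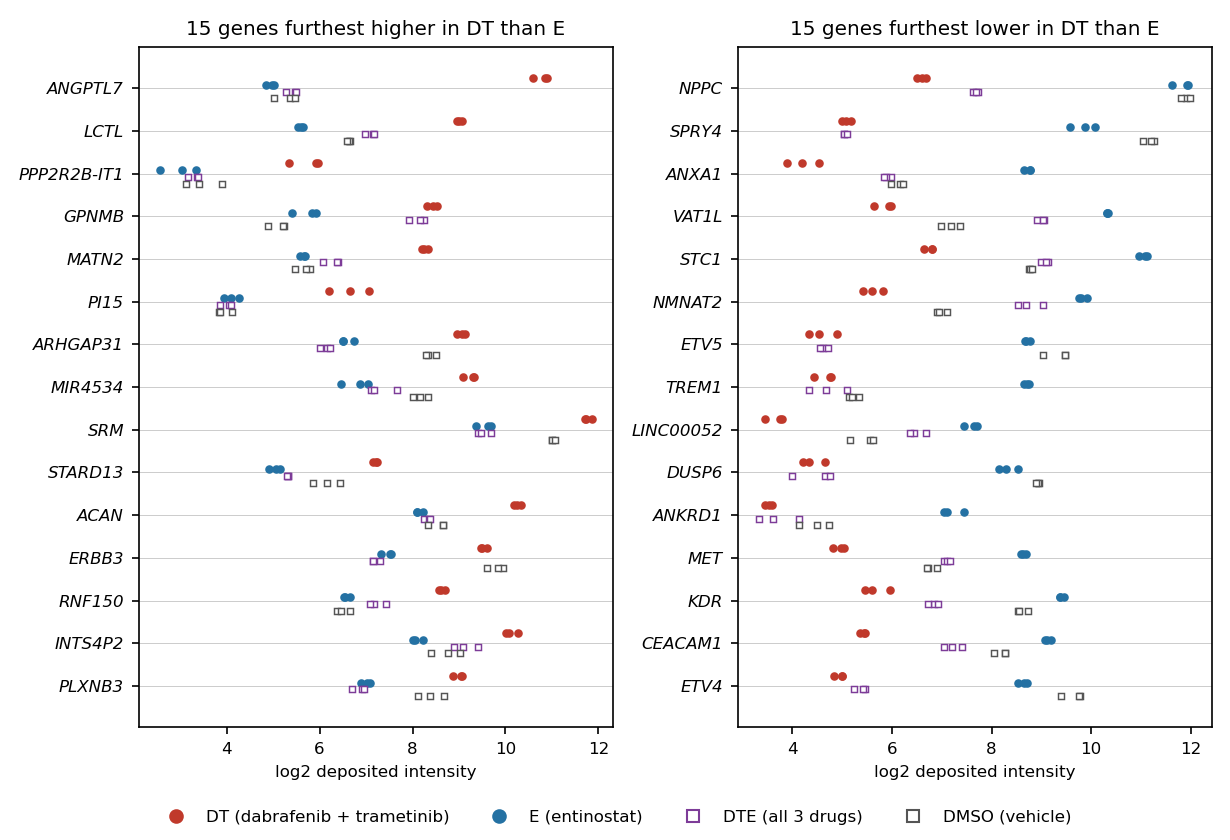
Log2 deposited intensity of each array for the 15 genes furthest higher (left) and the 15 furthest lower (right) in DT than in E. Red points are DT, blue points E, and open squares DTE and DMSO, 3 arrays each. Red and blue are apart for every gene shown, while the open squares lie near DT for some genes, such as SPRY4 in DTE, and near E for others, such as ANGPTL7.

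The RefSeq promoters of the first 3 genes at each end are shown because these genes separate the drug states most. Each window runs from 250 bases before to 50 bases after the start of the gene on its own strand, on build GRCh38.p14. The windows lie at chr2:231926347-231926646 (minus strand) for NPPC, chr5:142324198-142324497 (minus strand) for SPRY4, chr9:73151615-73151914 (plus strand) for ANXA1, chr1:11189105-11189404 (plus strand) for ANGPTL7, chr15:66565949-66566248 (minus strand) for LCTL and chr5:146919457-146919756 (minus strand) for PPP2R2B-IT1. Both strands were searched for 9 motifs, and capitals mark every match. The core CCGGAA is known from ETS factors, and TGANTCA is the site of AP-1. The E-box was searched for as CACGTG, known from MYC and MITF, and the M-box core of the MITF family as CATGTG. The letters TTGGCGC stood for an E2F site, and TTTGAA for the cell cycle homology region, or CHR, of genes under the DREAM complex. The CCAAT box, bound by NF-Y, is given by its name, and the GC box of the SP family was searched for as GGGCGG. The last was the core TGACGT of the CRE, known from CREB and ATF factors. Matches of different motifs could overlap.
NPPC: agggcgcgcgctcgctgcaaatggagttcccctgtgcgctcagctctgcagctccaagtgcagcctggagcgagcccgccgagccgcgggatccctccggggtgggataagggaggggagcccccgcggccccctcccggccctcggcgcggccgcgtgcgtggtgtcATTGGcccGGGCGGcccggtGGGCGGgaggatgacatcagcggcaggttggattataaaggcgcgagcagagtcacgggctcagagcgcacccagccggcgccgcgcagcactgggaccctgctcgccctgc
SPRY4: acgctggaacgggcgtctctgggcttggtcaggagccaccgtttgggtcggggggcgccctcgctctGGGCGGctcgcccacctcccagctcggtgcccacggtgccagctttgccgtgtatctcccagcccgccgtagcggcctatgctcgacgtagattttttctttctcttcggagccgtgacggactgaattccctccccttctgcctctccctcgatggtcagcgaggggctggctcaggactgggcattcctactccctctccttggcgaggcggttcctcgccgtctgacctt
ANXA1: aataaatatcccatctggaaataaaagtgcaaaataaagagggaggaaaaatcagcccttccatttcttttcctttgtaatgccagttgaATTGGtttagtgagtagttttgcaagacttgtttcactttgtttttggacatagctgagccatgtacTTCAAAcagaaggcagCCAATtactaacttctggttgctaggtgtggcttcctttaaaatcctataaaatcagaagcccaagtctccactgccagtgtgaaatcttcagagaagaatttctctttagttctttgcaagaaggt
ANGPTL7: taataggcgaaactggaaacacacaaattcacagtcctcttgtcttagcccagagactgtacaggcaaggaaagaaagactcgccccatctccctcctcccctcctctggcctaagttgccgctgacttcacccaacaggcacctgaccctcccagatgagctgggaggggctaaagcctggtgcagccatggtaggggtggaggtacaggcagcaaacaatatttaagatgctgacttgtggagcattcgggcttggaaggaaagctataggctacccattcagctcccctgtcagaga
LCTL: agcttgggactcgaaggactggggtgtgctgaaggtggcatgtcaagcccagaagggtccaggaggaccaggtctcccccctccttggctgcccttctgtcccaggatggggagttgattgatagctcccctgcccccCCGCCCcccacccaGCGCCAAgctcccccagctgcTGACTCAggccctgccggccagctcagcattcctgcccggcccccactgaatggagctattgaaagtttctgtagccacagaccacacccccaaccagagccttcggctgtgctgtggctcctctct
PPP2R2B-IT1: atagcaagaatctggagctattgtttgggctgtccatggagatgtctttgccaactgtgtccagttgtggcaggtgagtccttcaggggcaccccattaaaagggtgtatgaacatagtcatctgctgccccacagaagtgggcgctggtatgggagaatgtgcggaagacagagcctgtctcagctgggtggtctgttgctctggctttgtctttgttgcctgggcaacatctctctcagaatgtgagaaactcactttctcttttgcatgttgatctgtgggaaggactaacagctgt
NPPC holds a CCAAT box and 2 GC boxes, SPRY4 a single GC box, and ANXA1 2 CCAAT boxes and a CHR. In LCTL an AP-1 site, an E2F site and a GC box lie between 112 and 77 bases before the start. None of these letters were found in the windows of ANGPTL7 and PPP2R2B-IT1. Over all genes at least 2-fold different on both scales, a promoter of the table matched 92 of the 132 higher and 581 of the 759 lower in DT. The CCAAT box was in 26.1% of the higher and 41% of the lower, beside 36% of the 10571 promoters matched to measured genes and 35.7% of all 27305 promoters of the table. The GC box was in 54.3% of the higher and 69.4% of the lower, beside 60.5% for measured genes and 44.6% of all promoters. The AP-1 site was in 7.61% of the higher and 4.48% of the lower, beside 5.89% for measured genes and 7.76% of all promoters. The ETS core was in 13% of the higher and 15.5% of the lower, beside 23.8% for measured genes and 17.6% of all. For the CHR these shares were 19.6%, 13.4%, 11.8% and 15.4%, and for the E2F site 3.26%, 5.34%, 4.19% and 3.12%. For the E-box they were 7.61%, 7.4%, 9.02% and 7.43%, and for the CRE core 5.43%, 7.06%, 10.2% and 8.32%. A match is a run of letters and not a bound site, and these shares were not tested.

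The ERK feedback list had the lowest median of the 36 gene lists with measured members. Each list is given by counts on both scales and by its median, beside the median of all genes of -0.23 (quantile 0.04). Of 10 measured feedback genes, 9 were lower in DT on both scales and 0 higher, against 20.6% and 7.25% of all genes, and 8 of them were at least 2-fold lower. Their median difference was -2.42, quantile -2.07. SPRY2 averaged 4.63 ± 0.26 in DT and 8.16 ± 0.09 in E (-3.53 ± 0.12, quantile -3.18), the nuclear phosphatase DUSP4 6.80 ± 0.19 in DT and 8.93 ± 0.04 in E (-2.12 ± 0.12, quantile -1.72), and IER3, an immediate early gene, 8.03 ± 0.11 in DT and 10.94 ± 0.11 in E (-2.90 ± 0.12, quantile -2.52). DUSP2, named after its value was seen, was the exception, at -0.49 ± 0.13 on the deposited scale and -0.15 without passing after quantile normalization. Among 15 ETS factors 6 were lower and 2 higher, with a median of -0.36 that moved to 0.00 after quantile normalization. The members of the PEA3 group led it: ETV1 read 4.49, 4.97 and 4.29 in the DT arrays, against 8.29, 8.23 and 8.06 in the E arrays, a difference of -3.61 ± 0.15, quantile -3.27 beside those of ETV4 and ETV5. ERG was also lower (-1.80 ± 0.15, quantile -1.48), as were ETV3 (-0.92 ± 0.10, quantile -0.52) and ETV6 (-1.24 ± 0.11, quantile -0.82). EHF (0.74 ± 0.12, quantile 1.17) and ELF1 (0.76 ± 0.09, quantile 1.15) were the higher ones. ETV3, ETV6, EHF and ELF1 were named after their values were seen.

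Of 16 immediate early and AP-1 genes 10 were lower in DT and 0 higher, with a median of -0.88 (quantile -0.53). EGR1, a zinc finger factor induced through ERK, read 6.99, 6.86 and 6.95 in the DT arrays, against 9.48, 9.57 and 9.53 in the E arrays, a difference of -2.59 ± 0.16, quantile -2.19 (6.04-fold). FOSL1, an AP-1 subunit, averaged 5.83 ± 0.18 in DT and 7.85 ± 0.24 in E (-2.02 ± 0.15, quantile -1.65), KLF6 6.33 ± 0.21 in DT and 8.63 ± 0.08 in E (-2.30 ± 0.13, quantile -1.91) and MYC 5.83 ± 0.16 in DT and 7.37 ± 0.14 in E (-1.54 ± 0.13, quantile -1.19). JUN, another AP-1 subunit, did not pass (-0.25 ± 0.10, adjusted p = 0.055, quantile 0.16), and its value without the second E array was -0.34 (adjusted p = 0.026). FOSB (0.11 ± 0.14, quantile 0.46) and FOSL2 (-0.22 ± 0.13, quantile 0.16) did not pass on the deposited scale.

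**Figure D3:**
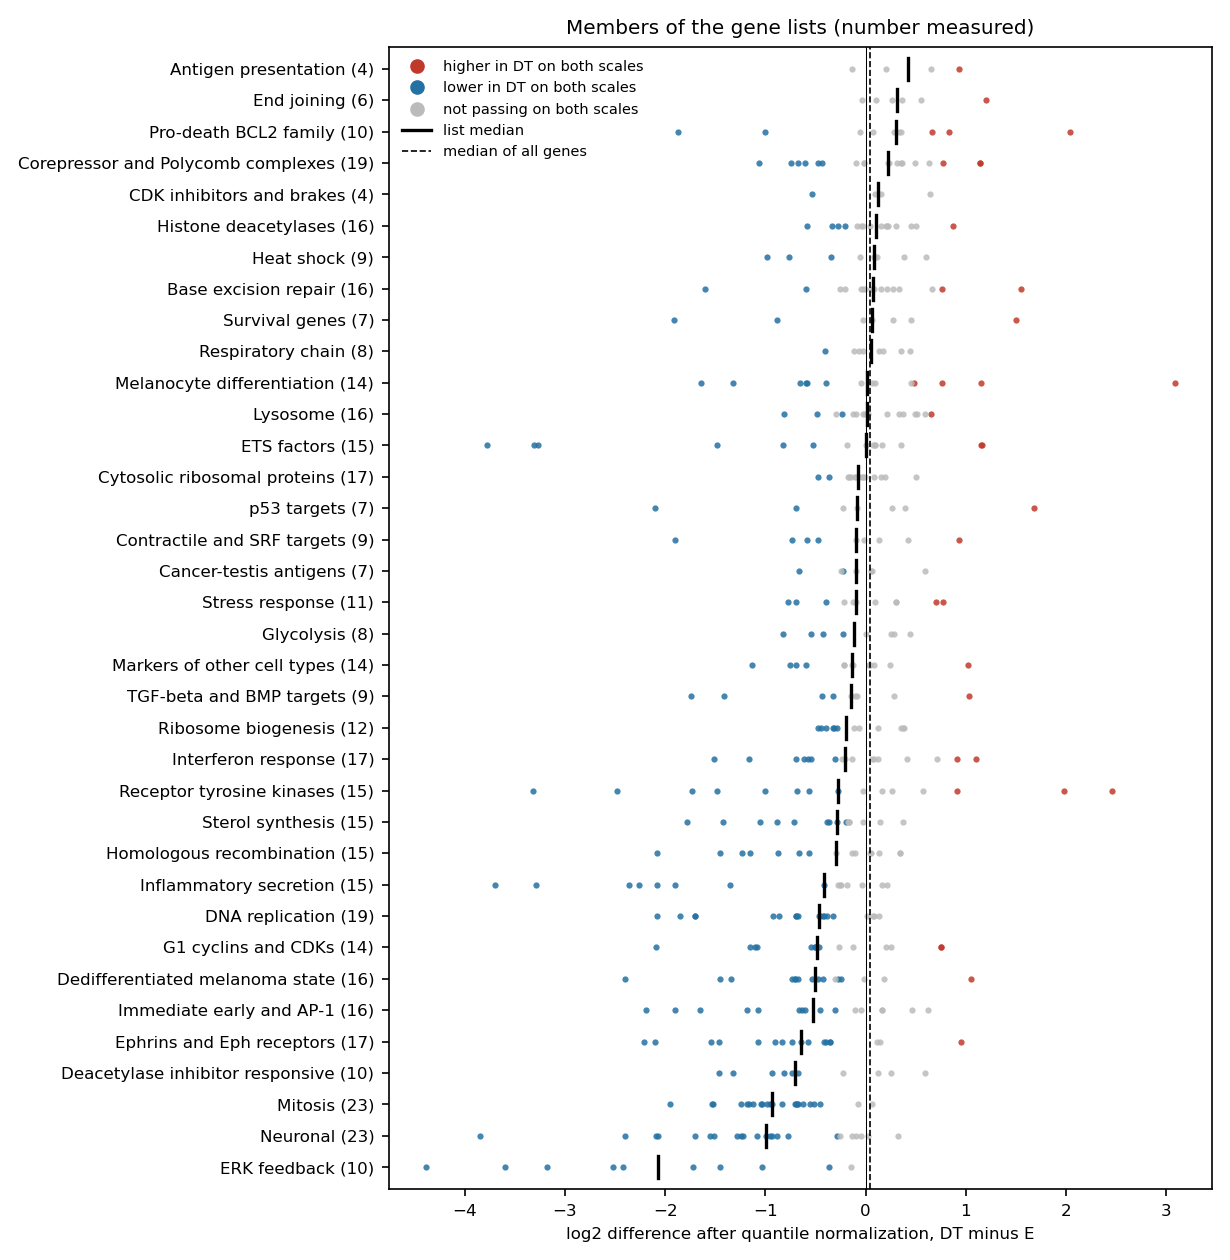
Log2 difference after quantile normalization, DT minus E, of every measured member of 36 gene lists, ordered by list median (black bars). Red and blue points passed on both scales, grey points did not, and the dashed line is the median of all genes. ERK feedback, neuronal and mitosis genes have the lowest medians, at -2.07, -0.99 and -0.93, while members with opposite calls stand in the same row for receptor tyrosine kinases, melanocyte differentiation and the pro-death BCL2 family.

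Receptor tyrosine kinase genes went both ways, also within families. Of 15 receptor tyrosine kinases 8 were lower and 3 higher in DT, with a median of -0.66 (quantile -0.28). MET, the hepatocyte growth factor receptor gene, read 4.82, 5.04 and 4.98 in the DT arrays, against 8.70, 8.64 and 8.58 in the E arrays. All DT arrays were below all E arrays by more than 3 log2 units, and DMSO, at 6.78, and DTE, at 7.11, lay between them. EGFR, the epidermal growth factor receptor gene, averaged 5.64 ± 0.12 in DT and 8.51 ± 0.11 in E (-2.87 ± 0.11, quantile -2.48), and MERTK, a receptor of the TAM family, 5.27 ± 0.02 in DT and 7.36 ± 0.06 in E (-2.09 ± 0.12, quantile -1.74). AXL, of the same family, averaged 9.44 ± 0.11 in DT and 10.09 ± 0.16 in E (-0.66 ± 0.11, quantile -0.28). In the ERBB family ERBB3 was higher while EGFR and ERBB4 (-1.35 ± 0.20, quantile -1.0) were lower. Of the fibroblast growth factor receptor genes, FGFR2 was higher (1.6 ± 0.10, quantile 1.98) and FGFR1 lower (-1.86 ± 0.12, quantile -1.48). The collagen receptor gene DDR2 was the remaining one higher (0.50 ± 0.12, quantile 0.91). ERBB4, FGFR1, FGFR2 and DDR2 were named after their values were seen. KIT did not pass (-0.01 ± 0.15, adjusted p = 0.98) and its arrays overlapped.

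Of 17 ephrins and Eph receptors, membrane-bound ligands and their receptors, 14 were lower in DT and 1 was higher, with a median of -0.92 (quantile -0.64). Among ligands, EFNA5 averaged 5.22 ± 0.15 in DT and 7.79 ± 0.03 in E (-2.57 ± 0.12, quantile -2.21) and EFNB2 5.58 ± 0.25 in DT and 8.06 ± 0.16 in E (-2.48 ± 0.14, quantile -2.10). The DMSO mean was 9.12 for EFNA5, above both drug states, and 4.74 for EFNB2, below both. Among receptors, EPHA2 (-1.90 ± 0.13, quantile -1.54) and EPHB1 (-1.86 ± 0.13, quantile -1.46) were lower. The ligand EFNA1 was the one higher (0.57 ± 0.12, quantile 0.95, named after its value was seen).

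Of 23 mitosis genes 21 were lower in DT and 0 higher on both scales, and all 23 passed as lower on the deposited scale, with a median of -1.29 (quantile -0.93). CDK1, the kinase that drives entry into mitosis, read 6.46, 6.82 and 6.26 in the DT arrays, against 8.88, 8.83 and 8.88 in the E arrays. The groups were more than 2 log2 units apart, a difference of -2.35 ± 0.13, quantile -1.95 (5.1-fold, adjusted p = 4.4e-10). AURKB, a kinase of chromosome segregation, averaged 7.06 ± 0.19 in DT and 9.01 ± 0.04 in E (-1.95 ± 0.13, quantile -1.53), the spindle motor gene KIF11 8.24 ± 0.17 in DT and 10.15 ± 0.03 in E (-1.90 ± 0.11, quantile -1.53), the checkpoint kinase gene BUB1 8.21 ± 0.14 in DT and 9.85 ± 0.05 in E (-1.65 ± 0.10, quantile -1.25) and MKI67, a marker of cycling cells, 9.28 ± 0.13 in DT and 10.65 ± 0.05 in E (-1.37 ± 0.10, quantile -0.99). For CDK1, KIF11 and BUB1 the E mean lay within 0.3 of the DMSO means, which were 8.58, 10.13 and 9.90.

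The RefSeq promoters of CDK1, at chr10:60778081-60778380 (plus strand), and AURKB, at chr17:8210176-8210475 (minus strand), are shown because 21 of 23 mitosis genes were lower together, with the pair chosen after the values were seen. Capitals mark CCAAT boxes and CHRs only.
CDK1: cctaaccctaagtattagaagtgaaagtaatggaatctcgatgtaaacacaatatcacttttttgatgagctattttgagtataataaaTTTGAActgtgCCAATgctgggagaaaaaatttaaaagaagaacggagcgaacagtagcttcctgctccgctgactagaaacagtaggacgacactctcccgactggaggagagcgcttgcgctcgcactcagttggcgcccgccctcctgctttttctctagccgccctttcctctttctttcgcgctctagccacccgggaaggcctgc
AURKB: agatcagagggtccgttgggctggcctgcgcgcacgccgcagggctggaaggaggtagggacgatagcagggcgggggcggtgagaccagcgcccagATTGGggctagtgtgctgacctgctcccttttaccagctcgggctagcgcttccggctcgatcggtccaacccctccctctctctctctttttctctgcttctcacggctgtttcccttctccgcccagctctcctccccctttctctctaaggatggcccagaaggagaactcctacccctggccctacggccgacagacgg
CDK1 holds a CCAAT box and a CHR, and AURKB a CCAAT box on the other strand. Of the 19 mitosis promoters in the table, 84.2% held a CCAAT box and 73.7% a CHR, beside 36% and 11.8% of the promoters of measured genes and 35.7% and 15.4% of all promoters. The CCAAT box was also in 85.7% of 14 sterol synthesis promoters and 68.8% of 16 DNA replication promoters. Over all genes at least 2-fold different, the CHR was in 19.6% of those higher in DT and 13.4% of those lower. These shares were not tested.

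Of 19 DNA replication genes 15 were lower in DT and 0 higher, with a median of -0.86 (quantile -0.47). CDC6, which loads the replicative helicase, read 5.42, 5.51 and 5.09 in the DT arrays, against 7.86, 7.77 and 7.71 in the E arrays, a difference of -2.44 ± 0.12, quantile -2.08 (5.43-fold). RRM2, a subunit of ribonucleotide reductase, averaged 6.75 ± 0.07 in DT and 8.86 ± 0.02 in E (-2.11 ± 0.11, quantile -1.70), the replication initiation gene MCM10 5.53 ± 0.13 in DT and 7.59 ± 0.04 in E (-2.07 ± 0.11, quantile -1.70) and GINS4, of the replicative helicase complex, 5.34 ± 0.33 in DT and 7.55 ± 0.17 in E (-2.21 ± 0.14, quantile -1.85). The larger subunit gene RRM1 did not pass (-0.24 ± 0.12, quantile 0.14). The E2F site letters stood in 25% of 16 replication promoters, beside 4.19% of those of measured genes and 3.12% of all.

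The G1 genes were divided. Of 14 G1 cyclins, kinases and E2F factors 8 were lower and 2 higher in DT, with a median of -0.85 (quantile -0.49). CCND1, which encodes cyclin D1, read 7.28, 7.24 and 7.13 in the DT arrays, against 9.64, 9.83 and 9.65 in the E arrays, with DTE at 7.33 and DMSO at 9.91. The difference was -2.49 ± 0.11, quantile -2.09 (5.6-fold). CDK2 (-1.56 ± 0.11, quantile -1.15), E2F1 (-1.47 ± 0.16, quantile -1.11) and CCND2 (-1.37 ± 0.16, quantile -1.08) were lower too. CDK4 (0.33 ± 0.12, adjusted p = 0.029, quantile 0.75) and CCNE2 (0.40 ± 0.12, adjusted p = 0.0085, quantile 0.75), both named after their values were seen, were higher. Neither was checked with an array left out. Of the CDK inhibitors and other brakes, 4 were measured and only CCNG2 was lower (-0.87 ± 0.10, quantile -0.53), while RBL2, a relative of the retinoblastoma protein, did not pass (0.21 ± 0.10, quantile 0.64) and read 0.30 (adjusted p = 0.028) without the third DT array.

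Of 15 homologous recombination genes 7 were lower in DT and 0 higher, with a median of -0.68 (quantile -0.30). EXO1, the end-resecting nuclease gene, read 5.69, 5.78 and 5.50 in the DT arrays, against 8.12, 8.04 and 8.19 in the E arrays, a difference of -2.46 ± 0.11, quantile -2.08 (5.5-fold). The helicase gene BRIP1 (-1.85 ± 0.11, quantile -1.46), RAD54B (-1.59 ± 0.12, quantile -1.23) and XRCC2 (-1.55 ± 0.12, quantile -1.15) followed. Of 6 end joining genes 0 were lower on both scales and 1 was higher: TP53BP1, which encodes the break-binding protein 53BP1, averaged 7.14 ± 0.18 in DT and 6.30 ± 0.17 in E (0.84 ± 0.13, quantile 1.20). Base excision repair had 2 of 16 genes lower and 2 higher, beside 20.6% and 7.25% of all genes. Its median of -0.27 (quantile 0.07) was near that of all genes. The glycosylase genes NEIL3 and NEIL1 stood at opposite ends: NEIL3 averaged 6.88 ± 0.20 in DT and 8.88 ± 0.10 in E (-2.01 ± 0.12, quantile -1.60), and NEIL1 7.0 ± 0.06 in DT and 5.81 ± 0.27 in E (1.19 ± 0.15, quantile 1.54). MBD4 was lower (-1.03 ± 0.10, quantile -0.60) and XRCC1 higher (0.33 ± 0.11, quantile 0.76), though XRCC1 did not pass without DT array 1 (0.25, adjusted p = 0.11), DT array 2 (0.32, adjusted p = 0.063) or E array 2 (0.30, adjusted p = 0.08).

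Lineage genes also went both ways. Of 14 melanocyte differentiation genes 4 were higher and 6 lower in DT, and their median was -0.10 (quantile 0.01). Besides GPNMB, SOX10, the neural crest and melanocyte factor, read 9.65, 9.71 and 9.47 in the DT arrays, against 8.73, 8.87 and 9.0 in the E arrays. Every DT array was above every E array, a difference of 0.74 ± 0.12, quantile 1.15 (adjusted p = 5.9e-05). MITF, the master regulator of melanocytes, averaged 6.21 ± 0.14 in DT and 5.79 ± 0.18 in E (0.42 ± 0.13, quantile 0.76, adjusted p = 0.012). Its call rested on single arrays: the value was 0.36 (adjusted p = 0.052) without DT array 1 and 0.31 (adjusted p = 0.076) without E array 3. MLANA, a melanosomal antigen gene, was dim and read 0.32 ± 0.11 (quantile 0.48), and it did not pass without DT array 1 (0.24, adjusted p = 0.11), DT array 3 (0.28, adjusted p = 0.08), E array 1 (0.29, adjusted p = 0.07) or E array 2 (0.33, adjusted p = 0.053). Lower in DT were PMEL, the melanosome fibril gene, which averaged 5.47 ± 0.06 in DT and 7.14 ± 0.11 in E (-1.67 ± 0.14, quantile -1.32), and the endothelin receptor gene EDNRB, which averaged 4.96 ± 0.09 in DT and 6.94 ± 0.14 in E (-1.98 ± 0.12, quantile -1.65). TYR, the pigment enzyme tyrosinase, did not pass (-0.04 ± 0.14) and was dim in every group.

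The RefSeq promoter of GPNMB, at chr7:23246525-23246824 (plus strand), is shown because the gene leads the differentiation list. Capitals mark the M-box core, the letters CATGTG or their reverse complement, which MITF is known to bind.
GPNMB: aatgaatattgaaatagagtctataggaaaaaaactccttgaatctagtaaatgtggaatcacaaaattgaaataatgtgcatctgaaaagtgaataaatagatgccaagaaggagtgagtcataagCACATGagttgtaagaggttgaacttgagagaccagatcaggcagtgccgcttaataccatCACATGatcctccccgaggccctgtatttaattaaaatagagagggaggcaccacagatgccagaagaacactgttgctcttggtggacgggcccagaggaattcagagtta
It holds 2 M-box cores, which start 123 and 62 bases before the start of the gene. Of 11 differentiation promoters in the table, 63.6% held this core, beside 8.27% of the promoters of measured genes and 11.2% of all promoters. It was also in 40% of 10 promoters of the inflammatory list described below, in which 8 genes were lower and 0 higher in DT. These shares were not tested. The share was 12% among genes at least 2-fold higher in DT and 5.34% among those at least 2-fold lower.

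Of 16 genes of the dedifferentiated melanoma state 12 were lower in DT and 1 was higher, with a median of -0.92 (quantile -0.50). NGFR, the low-affinity neurotrophin receptor gene, read 7.35, 7.21 and 7.11 in the DT arrays, against 9.90, 10.02 and 10.05 in the E arrays. The groups were more than 2 log2 units apart, a difference of -2.77 ± 0.10, quantile -2.40 (6.81-fold). The transcription factor genes SNAI1 (-1.87 ± 0.12, quantile -1.46), SOX9 (-1.74 ± 0.13, quantile -1.34) and SOX2 (-1.09 ± 0.12, quantile -0.74) were lower as well. CCN2, a target of YAP and TGF-beta signalling, was the one higher (0.63 ± 0.10, quantile 1.05, named after its value was seen). Among markers of cell types that the culture should not hold, 14 of 26 were measured. Of these 4 were lower and 1 higher in DT, beside 20.6% and 7.25% of all genes. Lower in DT were PDGFRL, THY1, LYZ (-1.02 ± 0.12, quantile -0.75) and, named after its value was seen, CD68 (-1.0 ± 0.12, quantile -0.60), a lysosomal protein of macrophages, and KRT14 was higher (0.70 ± 0.16, quantile 1.02). The summed intensity of 4 fibroblast markers was 230.8 to 274 in DT and 631.8 to 709.2 in E, carried by PDGFRL (-1.54 ± 0.11, quantile -1.13) and THY1 (-1.04 ± 0.12, quantile -0.70), while DCN and LUM were among the dimmest 4 percent of genes in all groups. For 5 blood markers the sums were 337.7 to 371.7 in DT and 535.4 to 654.2 in E. For 4 keratinocyte markers they were 107.5 to 115 in DT and 93.67 to 109.7 in E, and the endothelial VWF read 25.15 to 26.43 in DT and 28.51 to 31.01 in E. For the 9 melanoma markers the sums were 2006 to 2340 in DT and 2996 to 3242 in E. Their part in the results above was not tested.

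**Figure D4:**
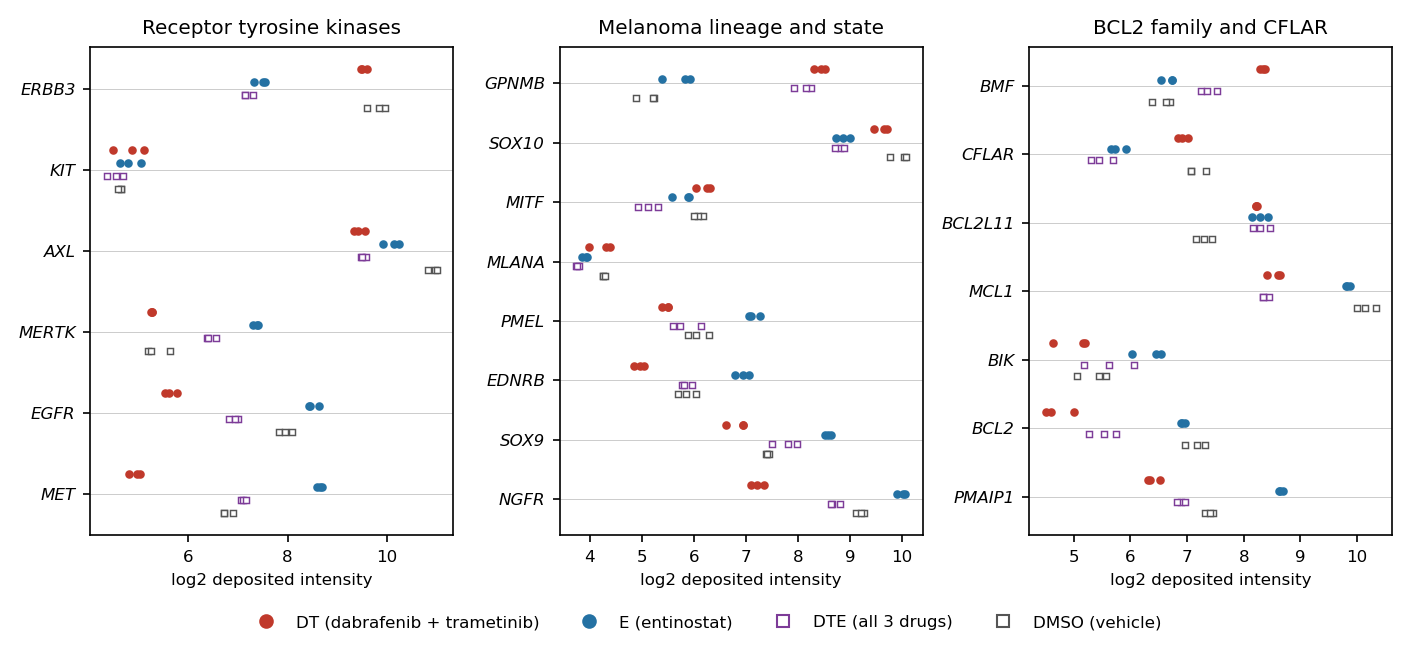
Log2 deposited intensity per array of receptor tyrosine kinases (left), genes of melanoma lineage and state (middle) and genes of the BCL2 family with CFLAR (right). Red points are DT, blue points E, and open squares DTE and DMSO, 3 arrays each. DT lies to the right of E for ERBB3, GPNMB, SOX10, BMF and CFLAR and to the left for MET, EGFR, NGFR, SOX9, BCL2 and PMAIP1, while KIT and BCL2L11 overlap.

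Of 23 measured neuronal genes, 17 were lower in DT and 0 higher, 11 of them at least 2-fold on both scales, and the median was -1.35 (quantile -0.99). SYN1, a synaptic vesicle protein gene, read 5.89, 6.10 and 5.85 in the DT arrays, against 8.58, 8.86 and 8.75 in the E arrays. Its difference was -2.79 ± 0.12, quantile -2.40 (6.89-fold), with levels of 8.12 in DTE and 6.39 in DMSO. CALB2, which encodes calretinin, averaged 6.83 ± 0.08 in DT and 9.31 ± 0.10 in E (-2.49 ± 0.10, quantile -2.09), and SCG2, a secretogranin gene, 4.64 ± 0.24 in DT and 7.02 ± 0.14 in E (-2.39 ± 0.19, quantile -2.07). The DMSO mean lay below both drug states for CALB2, at 6.28, and near E for SCG2, at 7.05. DCX (-0.24 ± 0.15, quantile -0.05) and SCG5 (0.08 ± 0.14, quantile 0.32) did not pass on the deposited scale.

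Corepressor genes went both ways. Of 19 members of corepressor and Polycomb complexes 3 were higher and 6 lower in DT, with a median of -0.19 (quantile 0.22). REST, the repressor of neuronal genes, read 8.64, 8.53 and 8.41 in the DT arrays, against 7.90, 7.74 and 7.71 in the E arrays. All DT arrays were above all E arrays, a difference of 0.74 ± 0.11, quantile 1.14 (adjusted p = 3.3e-05), with DTE at 6.77, below both, and DMSO at 9.11, above both. CHD3, a remodeller of the NuRD complex, was higher (0.71 ± 0.11, quantile 1.14), as was, named after its value was seen, the Polycomb-associated PHF19 (0.42 ± 0.12, quantile 0.77). Their DMSO means, 10.24 for CHD3 and 9.10 for PHF19, were also above both drug states. EZH2, the Polycomb methyltransferase gene, averaged 7.92 ± 0.05 in DT and 9.41 ± 0.05 in E (-1.49 ± 0.10, quantile -1.07) and MTF2 was lower (-1.13 ± 0.10, quantile -0.74). Of 16 deacetylase genes 4 were lower and 1 higher, near the 20.6% and 7.25% of all genes. Among the targets of entinostat, HDAC3 averaged 7.84 ± 0.08 in DT and 8.60 ± 0.10 in E (-0.75 ± 0.10, quantile -0.34) and HDAC1 8.59 ± 0.07 in DT and 9.22 ± 0.11 in E (-0.63 ± 0.10, quantile -0.21). HDAC2 passed on the deposited scale (-0.37 ± 0.11, adjusted p = 0.011) but not after quantile normalization (-0.03, adjusted p = 0.79) or without E array 2 (-0.32, adjusted p = 0.057). HDAC9 (-0.93 ± 0.13, quantile -0.59) was lower and the sirtuin gene SIRT2 (0.49 ± 0.12, quantile 0.87) higher. Of 10 measured genes known to respond to deacetylase inhibitors 6 were lower in DT, with a median of -1.06 (quantile -0.70). They were led by the metallothionein genes MT1X (-1.86 ± 0.14, quantile -1.47) and MT2A (-1.74 ± 0.15, quantile -1.33), close relatives whose probe sets may share signal. CLU (-1.31 ± 0.12, quantile -0.94) and DHRS2 (-1.21 ± 0.11, quantile -0.82) followed. The E mean was above the DMSO mean for MT1X (10.53 against 9.82), CLU (7.82 against 5.62) and DHRS2 (10.13 against 9.81). It was below the DMSO mean for MT2A (9.57 against 10.16). The same held for GSN (7.76 against 8.53), also lower in DT (-1.04 ± 0.12, quantile -0.68, named after its value was seen).

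Of 15 measured inflammatory genes, which encode secreted factors and some receptors, 8 were lower in DT, 0 were higher and 7 did not pass on both scales. The median was -0.75 (quantile -0.41). MMP13, a collagenase gene, read 2.96, 2.69 and 3.08 in the DT arrays, against 6.49, 6.31 and 6.36 in the E arrays, a difference of -3.48 ± 0.21, quantile -3.29 (11.1-fold). The chemokine gene CXCL8 averaged 3.28 ± 0.17 in DT and 5.75 ± 0.18 in E (-2.47 ± 0.16, quantile -2.26) and the adhesion receptor gene ICAM1 7.26 ± 0.11 in DT and 9.99 ± 0.03 in E (-2.73 ± 0.12, quantile -2.36). DMSO means were 3.28 for MMP13 and 3.51 for CXCL8, near the DT level, and 8.74 for ICAM1, between the drug states. CCL2 did not pass on the deposited scale (-0.24 ± 0.10) and passed as higher after quantile normalization (0.21, adjusted p = 0.044), and VCAM1 passed on neither (-0.02 ± 0.13, quantile 0.17). Interferon response genes were split, with 7 of 17 lower, 2 higher and a median of -0.44 (quantile -0.21). RIGI, a sensor of viral RNA, averaged 5.40 ± 0.08 in DT and 7.27 ± 0.12 in E (-1.87 ± 0.10, quantile -1.51), and BST2 (-1.52 ± 0.11, quantile -1.16) and OASL (-1.04 ± 0.13, quantile -0.70) were lower, whereas MX2 (0.75 ± 0.13, quantile 1.10) and, named after its value was seen, IRF9 (0.56 ± 0.11, quantile 0.91) were higher. Of 4 antigen presentation genes measured, the peptidase gene ERAP2 was higher (0.59 ± 0.16, quantile 0.93).

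Death and survival genes went both ways. Of 10 pro-death genes of the BCL2 family 3 were higher and 2 lower in DT, beside 7.25% and 20.6% of all genes. The share lower was near that of all genes, and the median was -0.06 (quantile 0.31). BMF, a BH3-only gene that promotes apoptosis, read 8.30, 8.37 and 8.34 in the DT arrays, against 6.54, 6.74 and 6.73 in the E arrays. The groups did not overlap, and the difference was 1.66 ± 0.11, quantile 2.04 (3.17-fold, adjusted p = 5.2e-09). PMAIP1, which encodes the BH3-only protein NOXA, read 6.34, 6.53 and 6.30 in the DT arrays, against 8.65, 8.69 and 8.62 in the E arrays, a difference in the other direction of -2.26 ± 0.10, quantile -1.87 (4.8-fold). BIK, a further BH3-only gene, was also lower (-1.34 ± 0.21, quantile -1.01), and BAX, a pore-forming effector, was higher (0.45 ± 0.11, quantile 0.83), as was BAD (0.31 ± 0.12, quantile 0.66, named after its value was seen). BAD passed narrowly on the deposited scale (adjusted p = 0.049) and was not checked with an array left out. BCL2L11, which encodes BIM, had overlapping arrays and averaged 8.22 ± 0.01 in DT and 8.29 ± 0.15 in E (adjusted p = 0.66), with a 95% interval of the difference of -0.31 to 0.18 on the deposited scale. After quantile normalization it read 0.35 (adjusted p = 0.0047).

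Among 7 survival genes 2 were lower and 1 higher in DT. Beside 20.6% and 7.25% of all genes, these are too few to set the list apart. BCL2 averaged 4.70 ± 0.26 in DT and 6.93 ± 0.03 in E (-2.22 ± 0.15, quantile -1.91, 4.67-fold) and MCL1 8.56 ± 0.12 in DT and 9.84 ± 0.04 in E (-1.28 ± 0.11, quantile -0.88), with E means near the DMSO means of 7.15 and 10.16. CFLAR, which encodes the caspase-8 inhibitor FLIP, read 7.01, 6.92 and 6.84 in the DT arrays, against 5.65, 5.93 and 5.73 in the E arrays, a difference of 1.16 ± 0.12, quantile 1.5 (2.23-fold). BCL2L1 and XIAP did not pass on the deposited scale, at 0.08 ± 0.12 (quantile 0.45) and -0.05 ± 0.11 (quantile 0.28). Of 7 p53 targets TP53I3 was higher (1.31 ± 0.12, quantile 1.68), and GDF15, a stress-induced cytokine gene (-2.49 ± 0.12, quantile -2.11), and PLK3 (-1.04 ± 0.13, quantile -0.70) were lower. These counts too are not set apart from the shares of all genes.

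The sterol list led the metabolic lists in calls. Of 15 sterol synthesis genes 9 were lower in DT and 0 higher, with a median of -0.63 (quantile -0.29). They included STARD4, a cholesterol carrier gene (-2.18 ± 0.11, quantile -1.78), DHCR7, the last enzyme of cholesterol synthesis (-1.82 ± 0.11, quantile -1.42), and the monooxygenase gene SQLE (-1.46 ± 0.10, quantile -1.05). Of 8 glycolysis genes 4 were lower, LDHA most (-1.19 ± 0.11, quantile -0.82), with a median of -0.48 (quantile -0.11). Of 12 ribosome biogenesis genes 6 were lower, among them NOP58 (-0.86 ± 0.10, quantile -0.48), with a median of -0.59 (quantile -0.20). Of 17 cytosolic ribosomal protein genes 2 were lower, RPS3 (-0.83 ± 0.10, quantile -0.48) and RPS6 (-0.78 ± 0.11, quantile -0.37), a share below the 20.6% of all genes, and of 8 respiratory chain genes UQCRC1 alone (-0.82 ± 0.12, quantile -0.40). The 16 lysosomal genes gave 3 lower, a share near the 20.6% of all genes: CTSL (-1.22 ± 0.10, quantile -0.81), CTSB (-0.84 ± 0.11, quantile -0.49) and CD63 (-0.63 ± 0.11, quantile -0.24). CTSA was higher (0.28 ± 0.10, quantile 0.65) but did not pass without DT array 1 (0.28, adjusted p = 0.068), DT array 2 (0.24, adjusted p = 0.11) or E array 1 (0.20, adjusted p = 0.15).

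Of 9 contractile genes and targets of the factor SRF, 4 were lower, VCL, the vinculin gene, most (-2.28 ± 0.10, quantile -1.90), and CALD1 was higher (0.50 ± 0.11, quantile 0.93). Of 9 genes in the list of TGF-beta and BMP targets, which also holds ligands and binding proteins, 4 were lower. The ligand gene BMP4 averaged 6.34 ± 0.12 in DT and 8.48 ± 0.13 in E (-2.13 ± 0.13, quantile -1.74). The pseudoreceptor gene BAMBI averaged 8.70 ± 0.10 in DT and 10.50 ± 0.10 in E (-1.80 ± 0.10, quantile -1.41), and the inhibitory SMAD6 was higher (0.66 ± 0.11, quantile 1.03). Of 11 stress response genes 3 were lower and 2 higher, beside 20.6% and 7.25% of all genes. HMOX1, the haem oxygenase gene (-1.15 ± 0.12, quantile -0.77), and ASNS, the asparagine synthetase gene (-1.10 ± 0.11, quantile -0.69), were lower, as was TRIB3 (-0.73 ± 0.11, quantile -0.39). DDIT4, named after its value was seen and not checked with an array left out, was higher (0.28 ± 0.11, adjusted p = 0.04, quantile 0.70). So was ATF5 (0.42 ± 0.13, quantile 0.77), which did not pass without DT array 2 (0.37, adjusted p = 0.051) or E array 3 (0.36, adjusted p = 0.057). Of 9 heat shock genes the co-chaperone gene BAG3 (-1.39 ± 0.10, quantile -0.98), HSPB8 (-1.03 ± 0.12, quantile -0.77) and HSPD1 (-0.78 ± 0.12, quantile -0.34) were lower. Of 7 cancer-testis genes TEX14 (-1.0 ± 0.13, quantile -0.67) and DDX43 (-0.60 ± 0.10, quantile -0.23) were lower. For the heat shock and cancer-testis lists the background is the 20.6% lower among all genes. Histone genes and collagen, laminin and integrin genes were not analysed here.

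Non-coding genes showed differences in both directions. Of 1361 long non-coding RNA genes 8 were at least 2-fold higher (0.588%) and 22 at least 2-fold lower in DT (1.62%) on both scales. Of 1020 microRNA genes 10 were higher (0.98%) and 12 lower (1.18%). For the 11734 protein-coding genes the shares were 0.895% (105 genes) and 6.08% (713 genes). MIR4534 read 9.33, 9.08 and 9.31 in the DT arrays, against 6.46, 7.05 and 6.86 in the E arrays, 5.45-fold higher in DT (adjusted p = 4.7e-09). The genes that follow were named after their values were seen. MIR146A, whose microRNA is known to restrain inflammatory signalling, read 4.69, 5.15 and 4.74 in the DT arrays, against 6.77, 7.04 and 6.70 in the E arrays (-1.97 ± 0.14, quantile -1.65). MIR221, whose microRNA is known to target CDK inhibitors, read 4.20, 4.29 and 4.13 in the DT arrays, against 5.38, 5.55 and 5.6 in the E arrays (-1.30 ± 0.12, quantile -1.05), and MIR622 averaged 4.61 ± 0.45 in DT and 7.38 ± 0.26 in E (-2.77 ± 0.18, quantile -2.45). In each of them the DT and E arrays did not overlap. Among long non-coding RNAs, MEG3 averaged 4.61 ± 0.20 in DT and 6.81 ± 0.42 in E (-2.19 ± 0.18, quantile -1.89) and MIR31HG 3.52 ± 0.28 in DT and 5.79 ± 0.15 in E (-2.27 ± 0.20, quantile -2.05), both lower in DT, and FENDRR 6.63 ± 0.11 in DT and 4.91 ± 0.15 in E (1.72 ± 0.14, quantile 2.03), higher in DT.

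The mature sequences of these 4 microRNA genes are shown from RefSeq on build GRCh38.p14, with the seed, bases 2 to 8, in capitals. The probe sets are named for the genes, and whether they read the mature RNA is not given in the sources used here. They lie at chr22:37988829-37988845 (plus strand) for miR-4534, chr5:160485372-160485393 (plus strand) for miR-146a-5p, chrX:45746180-45746202 (minus strand) for miR-221-3p and chr13:90231242-90231262 (plus strand) for miR-622.
hsa-miR-4534: gGAUGGAGgaggggucu
hsa-miR-146a-5p: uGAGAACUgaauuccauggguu
hsa-miR-221-3p: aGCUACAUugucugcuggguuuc
hsa-miR-622: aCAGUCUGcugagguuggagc
Among the 22 microRNA genes at least 2-fold different, 17 had a mature sequence in the table used here, with 23 seeds in all. Between these 17 genes 0 seeds were shared. The remaining genes, among them the related MIR548H1 and MIR548H2, both higher in DT, had no sequence there, so their seeds were not compared.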

How the data were processed

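RNA from Hs695T cells was measured on 12 expression arrays, 3 for each of the groups DT, E, DTE and DMSO, assigned by their titles. The deposited values are linear intensities per probe set, which the authors made with RMA in Transcriptome Analysis Console, per the submitters' processing notes. The sources used here give no versions or genome build, nor any use of the spike-in RNA added before extraction. Of 29592 probe sets, 14783 carried a gene name and 14809 were left out. The brightest probe set stood for the 169 genes with more than 1, which left 14599 genes, with symbols checked against RefSeq GRCh38.p14.

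The log2 of the deposited intensity was fitted in R 4.3.3 by limma's lmFit, contrasts.fit and eBayes (version 3.58.1, 1 mean for each of the 4 groups, all 12 arrays, 8 residual degrees of freedom). The contrast was DT minus E, with Benjamini-Hochberg adjustment over all 14599 genes and a threshold of 0.05. The fit was repeated after quantile normalization. Fold values come from the deposited scale. On simulated arrays of 14599 genes for this contrast, 57.6% of log2 changes of 0.5, 89.6% of changes of 1 and 100% of changes of 2 were called, with 5 false calls. Only 66 or 67 genes were changed at each size, the arrays had no shift in brightness, and a single fit made the calls. These figures therefore do not give the recovery or the false calls of the calls on both scales used here. The number of arrays limits the precision.

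Genes were named from the 15 furthest in each direction that passed on both scales without overlap of arrays, ranked by the smaller difference. Of the 15 higher genes, 13 are described, and the others are not reported here. Each list gave up to 4 genes that passed with the largest difference and up to 2 with the smallest that did not pass on the deposited scale. A fixed set of 33 genes, of which 31 were measured, and the cell type markers were added. Other genes are marked as named after their values were seen or, for the 5 with opposite calls, as listed for those calls. The genes and lists were chosen with earlier results of these data known. Of 38 lists, 36 had measured members, and no test was made of a list. Alternatives covered the scaling, dim genes, the variance model, probe sets per gene, the arrays in the fit, the replicate number as a block and each array left out. Figures were drawn with matplotlib 3.10.9 from tables made with pandas 2.3.3 and numpy 2.4.6 in Python 3.11.15.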

Additional observations from a re-analysis of the deposited data

How the results depend on the processing

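Scaling moved the deposited-scale counts most. With each array's median subtracted, 4134 genes were higher in DT and 2977 lower, and after quantile normalization 3530 were higher and 3014 lower, against 1058 and 5755 on the deposited scale. Leaving out 1 array gave 851 to 1058 higher and 4744 to 5579 lower genes on the deposited scale. On both scales it gave 850 to 1056 higher and 2772 to 2840 lower, and at least 2-fold 127 to 138 higher and 737 to 771 lower. The other alternatives kept every count within 1.5 times its value. Named genes were followed by whether they passed on the deposited scale, and none that passed reversed its direction. Of 220 named genes, 6 that passed did not without some single array (ATF5, CTSA, HDAC2, MITF, MLANA and XRCC1, with values above). Genes marked as named after their values were seen, and those listed for opposite calls, are not among the 220. They were not checked with an array left out. Whether a named gene kept its quantile result with an array left out was not checked. After quantile normalization of all arrays 39 passed that had not on the deposited scale, and HDAC2 alone no longer passed. MLANA also lost its call with the trended, robust variance model (0.32, adjusted p = 0.081). DT and E arrays with the same replicate number did not deviate together (r of -0.02 to 0.04), so the numbers were not taken as pairs. E and DTE arrays of the same number did so weakly (r of 0.09 to 0.12, against -0.07 to -0.03 for different numbers). In the remaining pairs of groups r for the same number ran from -0.11 to 0.06. With the replicate number as a block, 1057 genes were higher and 5762 lower on the deposited scale, and 1055 and 3002 on both scales. On the deposited scale all 220 named genes kept their direction and their side of the threshold. Dim genes and those near the threshold are limited by signal over background and by 3 arrays a group.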

Other observations

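MIR4534, the microRNA gene that was 5.45-fold higher in DT, lies at chr22:37988794-37988853 on build GRCh38.p14, within the extent of POLR2F and 4239 bases from SOX10, which was also higher in DT (0.74 ± 0.12, quantile 1.15). Its DTE mean was 7.32 and its DMSO mean 8.16, while SOX10 had 8.80 in DTE and 9.96 in DMSO.

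The 5 genes with opposite calls by scale were APP, which encodes the amyloid precursor protein, COX6A1, NOMO2, TOM1L2 and UBQLN1. Their deposited differences were -0.26 to -0.24 and their quantile differences 0.18 to 0.22. APP averaged 12.05 in DT and 12.32 in E, with adjusted p = 0.0349 on the deposited scale and 0.0312 after quantile normalization from limma.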
